A study of Homo sapiens with 24 samples.

Results

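ATP-binding cassette (ABC) transporter genes were followed in A549 cells exposed to dexamethasone (dex) or to ethanol (EtOH). The members were the protein-coding genes whose GENCODE symbol is ABC, a letter from A to G and a number, apart from ABCC2 and ABCC3, which were not included. This gave 43 genes in 7 subfamilies among the 33127 genes of the count table, 19266 of them protein-coding, and together the 43 genes took between 0.102% and 0.108% of the counts of each library.

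The A549 line grew out of a human lung adenocarcinoma, and dex is a synthetic glucocorticoid (GC) that activates the glucocorticoid receptor (GR). Poly-A RNA was sequenced from cultures given 100 nM dex in EtOH, or the same volume of the vehicle EtOH alone (0.02% of the medium in every group), for 1, 3, 5, 7, 9 or 11 h. The labels call the 2 libraries of each treatment and time point biological replicates, which makes 24 libraries in 12 groups, and every time point has its own EtOH libraries. The treatment text of the labels gives 1 h for every library and the study's methods state triplicates, so the duration label and the 2 labelled replicates were used here.

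ABC transporters use the energy of ATP to move substrates across membranes. Subfamily A and part of subfamily G carry sterols and phospholipids, subfamilies B, C and G include the pumps that make tumour cells resistant to drugs, subfamily D imports fatty acids into peroxisomes, and subfamilies E and F lack membrane domains and act on ribosomes and translation. The sulfonylurea receptors of subfamily C do not transport a substrate of their own but regulate the ATP-sensitive potassium (KATP) channel.

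The libraries held from 6708864 to 13748598 counts, and the biological coefficient of variation between replicates ran from 6.49% at 7 h to 12.66% at 11 h. Of 6 genes chosen as known GC targets, 5 had enough counts to be tested, and FKBP5, TSC22D3, PER1, KLF9 and DUSP1 were higher with dex at 2 or more consecutive time points. FKBP5, a chaperone partner of GR, had a log2 fold change of 4.04 at 7 h. The 8 epithelial and A549 genes summed to at least 7149 CPM (counts scaled to library size) in every library. Levels within this list were uneven: KRT19 (8.15 to 21.1 CPM) and EPCAM (4.09 to 11.1 CPM) were low, and the others were higher in every library. Of the 4 leukocyte markers, all stayed under 1 CPM, and the endothelial markers CDH5 and VWF were at most at 1.06 and 0.102 CPM. Of the 4 fibroblast markers, COL1A1 alone passed 1 CPM, at 5.04 to 22.4 CPM in the dex libraries and 10.5 to 19.4 CPM in the EtOH libraries. The part of these markers in the results below was not tested. In bulk RNA, fewer cells of a type and less RNA per cell cannot be told apart.

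The start regions of the members that changed with dex are shown first, because the results turn on these genes and GR acts by binding DNA. RefSeq (GRCh38.p14) gave 300-base windows, from 250 bases before to 50 bases after a gene's start, for 34 of the 43 members and for 5 of the 8 members that were called in the same direction at 2 or more consecutive time points (called dex-responsive here). The 5 windows lie at chr9:104928106-104928405 (ABCA1, minus strand), chr19:1039857-1040156 (ABCA7, plus strand), chr2:219218909-219219208 (ABCB6, minus strand), chr13:95301402-95301701 (ABCC4, minus strand) and chr4:88158860-88159159 (ABCG2, minus strand). They are written 5′ to 3′ on the gene's strand, and capitals mark the GC box GGGCGG and the TATA box TATAAA on either strand.
ABCA1: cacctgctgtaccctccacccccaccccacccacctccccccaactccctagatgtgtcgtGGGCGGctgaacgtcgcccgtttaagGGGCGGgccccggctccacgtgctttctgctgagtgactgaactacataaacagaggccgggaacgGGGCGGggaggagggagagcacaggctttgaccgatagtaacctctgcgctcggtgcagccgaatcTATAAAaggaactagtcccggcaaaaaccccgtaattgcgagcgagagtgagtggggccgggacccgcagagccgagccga
ABCA7: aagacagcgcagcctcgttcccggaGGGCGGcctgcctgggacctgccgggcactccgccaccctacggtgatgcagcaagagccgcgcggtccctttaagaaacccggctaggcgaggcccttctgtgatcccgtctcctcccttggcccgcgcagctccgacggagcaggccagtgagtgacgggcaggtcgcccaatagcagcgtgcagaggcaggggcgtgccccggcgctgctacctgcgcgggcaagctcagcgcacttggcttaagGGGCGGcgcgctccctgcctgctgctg
ABCB6: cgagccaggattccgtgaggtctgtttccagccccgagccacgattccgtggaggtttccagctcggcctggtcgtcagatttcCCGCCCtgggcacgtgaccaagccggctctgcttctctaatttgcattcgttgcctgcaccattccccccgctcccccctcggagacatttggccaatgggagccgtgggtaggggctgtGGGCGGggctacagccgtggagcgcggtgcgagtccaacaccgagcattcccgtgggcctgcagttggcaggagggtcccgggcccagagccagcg
ABCC4: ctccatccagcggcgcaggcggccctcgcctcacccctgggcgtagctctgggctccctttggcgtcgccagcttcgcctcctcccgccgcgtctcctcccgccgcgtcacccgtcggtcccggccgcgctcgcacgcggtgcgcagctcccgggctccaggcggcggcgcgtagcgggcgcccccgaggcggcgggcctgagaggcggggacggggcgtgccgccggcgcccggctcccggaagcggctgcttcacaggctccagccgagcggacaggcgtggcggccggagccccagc
ABCG2: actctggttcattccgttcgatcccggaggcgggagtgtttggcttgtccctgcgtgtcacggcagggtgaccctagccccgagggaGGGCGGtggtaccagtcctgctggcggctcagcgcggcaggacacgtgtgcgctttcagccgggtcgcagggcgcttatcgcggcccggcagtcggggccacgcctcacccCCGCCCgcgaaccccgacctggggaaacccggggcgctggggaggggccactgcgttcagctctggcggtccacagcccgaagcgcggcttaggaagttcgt

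The windows of ABCA1, ABCA7, ABCB6 and ABCG2 hold 3, 2, 2 and 2 GC boxes and that of ABCC4 holds 0, although it is the richest in G and C, at 79.7% against 62.7% to 70% in the others. ABCA1 has the only TATA box of the 5. Its window was matched to ENST00000423487, which starts 16 bases from the RefSeq start and held 1.19% of ABCA1 counts in EtOH. ENST00000374736, with 97.5%, starts 82 bases before the RefSeq start, so the marked TATA box lies after that transcript's start. A GC box occurs in 45% of all 35116 RefSeq windows of this length and in 65.6% of the 32 windows of tested members, and a TATA box in 11.5% and 12.5%. The half-site AGAACA, searched on both strands, occurs in 14.8% of all windows, in 2 of the 32 windows of tested members (ABCA12 and ABCE1), and in 0 of the 9 windows of dex-responsive members. The inverted repeat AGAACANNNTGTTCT, which contains that half-site, is found in 0 windows of members and in 1 of all windows. These letters are absent from these windows, which says nothing about other sites or about the factor.

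Between the groups, 28 of the 43 members had enough counts to be tested, and 15 did not. After 1 h of dex 0 members were called at an adjusted p of at most 0.1 by edgeR's quasi-likelihood F-test (Benjamini-Hochberg adjusted over 15337 genes), where 1.06% of all genes were called, 0.639% higher and 0.417% lower. At 1 h 3 members (ABCA7, ABCA12 and ABCC8) had an unadjusted p under 0.05 in edgeR, where 6.93% of all genes did. DESeq2 called 0 members at 1 h (0.809% of all genes). At 3 h 8 members were called against a background of 14.1%, 7 of them higher (background 8.42%) and ABCG2 lower (5.65%). At 5 h 9 members were called (25.0%), 6 higher (12.4%) and 3 lower (12.6%). At 7 h 11 were called (28.2%), 7 higher (14.7%) and 4 lower (13.5%). At 9 h 9 were called (19.8%), 6 higher (10.8%) and 3 lower (8.95%). At 11 h 4 were called (9.12%), 4 higher (5.80%) and 0 lower (3.33%). At that time 8 members had an unadjusted p under 0.05 in edgeR, where 17% of all genes did. ABCC6 and ABCG2, which were lower, were among these 8. Leaving out single libraries moved these counts up or down at 9 and 11 h. At 11 h the share called among all genes moved the same way. At one or more time points 15 members were called, which is 53.6% of those tested, where the share among all genes was 44.4%. ABCA8 is among these 15 and among the members called higher at 5, 7 and 9 h. It entered the test only through its dex libraries, so its calls were built into the filter.

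By the count of consecutive time points, 8 of the 28 tested members (28.6%) were dex-responsive, against 20.2% of all genes tested. ABCA1, ABCA7, ABCA8, ABCC4 and ABCC8 were higher (17.9% of the tested members against 10.7% of all genes), and ABCB6, ABCC1 and ABCG2 were lower (10.7% against 9.46%). ABCA8 entered the test only through its dex libraries, so its call was built into the filter, and without it 7 of 27 members (25.9%) were dex-responsive and 4 (14.8%) were higher. The median log2 fold change over the tested members was -0.05 at 1 h, 0.18 at 3 h, 0.19 at 5 h, 0.12 at 7 h, 0.07 at 9 h and 0.21 at 11 h, and that over all genes ran from -0.01 to 0.01. Both dex libraries lay above both EtOH libraries at every time point from 3 to 11 h for 7 members (25% of those tested, background 6.63%) and below them for 3 (10.7%, background 5.12%). By time point, both dex libraries lay above both EtOH libraries for 4 members at 1 h (background 17.8%), 13 at 3 h (26.6%), 15 at 5 h (28.0%), 11 at 7 h (28.9%), 11 at 9 h (26.4%) and 13 at 11 h (22.3%). They lay below for 7 members at 1 h (16.8%), 6 at 3 h (25.1%), 8 at 5 h (27.7%), 8 at 7 h (29.8%), 7 at 9 h (28.7%) and 4 at 11 h (23.6%). ABCA8 is among the members above at 5, 7 and 9 h. ABCC8 and ABCD3 lay above at all 6 time points (background 2.44%), and ABCB6 below at all 6 (background 1.38%).

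**Figure D1:**
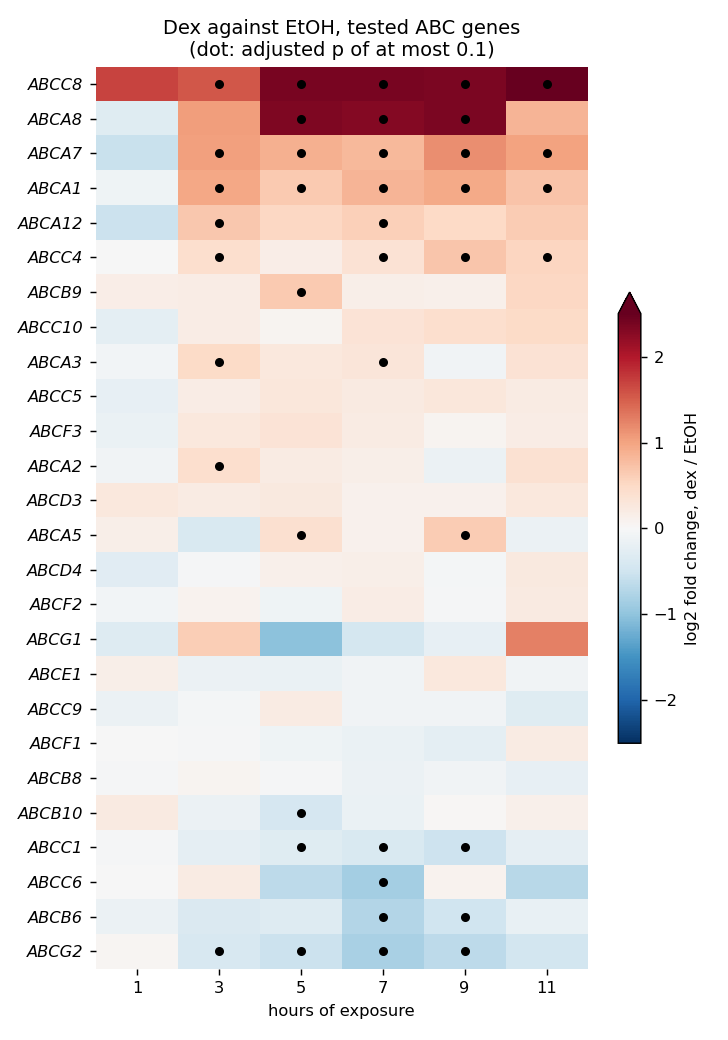
Log2 fold change of dex over EtOH for the tested ABC genes reported here (rows) at 6 time points in hours (columns), with a dot where the adjusted p is at most 0.1. ABCC8 and ABCA8 are the darkest red rows, ABCG2 and ABCB6 are among the blue rows at the foot, and the column at 1 h holds 0 dots.

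Among the genes of lipid and sterol export, 5 of 11 were tested. Of these 4 were called higher at 3 h (8.42% of all genes were) and at 7 h (14.7%), 2 were at each of 5, 9 and 11 h (12.4%, 10.8% and 5.80%), and 0 were called lower at any time. With DESeq2 the 4 at 3 and 7 h became 2, as ABCA3 and ABCA12 were lost. ABCA1 moves cholesterol and phospholipid to apolipoproteins outside the cell. It lay between 14.2 and 19.3 CPM in the 12 EtOH libraries, and with dex at 14.9 and 17.0 CPM after 1 h, 32.1 and 29.1 after 3 h, 24.9 and 26.2 after 5 h, 28.6 and 33.8 after 7 h, 29.9 and 26.1 after 9 h, and 30.1 and 27.3 after 11 h. From 3 h on, all dex libraries lay above all EtOH libraries, and at 1 h the groups overlapped. Its log2 fold change was 0.96 ± 0.14 (SE, n = 2 and 2) at 3 h, with an adjusted p of 2.01e-05 by edgeR, and 0.84 ± 0.13 at 7 h, with an adjusted p of 2.87e-06. The dex effect on ABCA1 differed between the 6 time points (adjusted p = 0.00413 by edgeR's test of the treatment by time interaction, called in 15.4% of all genes). Among the 28 tested members 6 (21.4%) were called in that test. The call of ABCA1 at 11 h was lost without EtOH replicate 1 and without EtOH replicate 2.

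ABCA7, a phospholipid transporter related to ABCA1, was called higher at the same time points as ABCA1, from 3 to 11 h. The EtOH libraries held 7.02 to 11.6 CPM. With dex it was at 5.14 and 5.93 CPM after 1 h, at 15.6 and 14.9 after 3 h, at 17.6 and 16.2 after 5 h, at 15.9 and 14.0 after 7 h, at 19.2 and 17.3 after 9 h and at 17.9 and 22.7 after 11 h. At 1 h both dex libraries lay below both EtOH libraries, with a log2 fold change of -0.56 that was not called (adjusted p = 0.603 by edgeR), and from 3 h on both lay above. At 9 h the log2 fold change was 1.16 ± 0.18, or 2.24-fold (adjusted p = 0.000576 by edgeR), and the effect differed between time points (adjusted p = 0.000617 by edgeR). The call of ABCA7 at 11 h was lost without EtOH replicate 1.

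ABCA3 exports lipid into the lamellar bodies of alveolar cells, where surfactant is stored, and was called higher at 3 h (41.5 and 29.3 CPM with dex, 23.9 and 26.9 with EtOH) and at 7 h (31.2 and 33.8 against 24.8 and 28.3). ABCA12, the lipid transporter of skin barrier cells, was called at the same times, with log2 fold changes of 0.67 at 3 h (adjusted p = 0.0777 by edgeR) and 0.59 at 7 h (adjusted p = 0.0733). Its dex effect differed between time points (adjusted p = 0.0881 by edgeR). The calls of ABCA12 were lost at both times with DESeq2, at a threshold of 0.05, with transcripts tested by themselves and without dex replicate 1, dex replicate 2 or EtOH replicate 2. ABCA3 was lost at both times with DESeq2, in one fit over 24 libraries, with transcripts tested by themselves and without dex replicate 1 or EtOH replicate 1. ABCG1, which passes cholesterol to lipoprotein particles, was not called at any time point in the main analysis. In one fit over 24 libraries ABCG1 was called at 11 h. Its dex libraries held 0.874 and 0.784 CPM at 5 h, both below the EtOH libraries at 1.94 and 1.499 CPM, and 1.57 and 2.33 CPM at 11 h, both above the EtOH libraries at 1.13 and 0.546 CPM. The effect at 11 h minus that at 5 h was 2.26 ± 0.64 (log2), and ABCG1 was the only member called in that contrast, where 2.91% of all genes were called, 2.02% more positive and 0.887% more negative at 11 h. The call was lost with DESeq2, with 10 counts in every library, at a threshold of 0.05 and without dex replicate 2 or either EtOH replicate, and over all 6 time points a difference in effect was not called for ABCG1 (adjusted p = 0.12 by edgeR).

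Among regulators of cholesterol efflux, 13 of 15 genes were tested. NPC1, which releases cholesterol from lysosomes, was higher with dex at consecutive time points, at 135.6 and 133.1 CPM at 5 h against 88.2 and 81.3 with EtOH. MYLIP, which lowers the LDL receptor, and SREBF1, a driver of lipid synthesis, were lower. SREBF1 was at 71.1 and 75.6 CPM with dex at 9 h against 110.8 and 113.1 with EtOH. Of the oxysterol receptors, NR1H2 was not called at any time. NR1H3 was called lower at 9 h alone, at 3.99 and 3.96 CPM with dex against 8.47 and 6.80 with EtOH. At the other time points its EtOH libraries held 4.03 to 6.30 CPM and its dex libraries 3.65 to 6.94. Both EtOH libraries of 9 h thus lay above its EtOH libraries of every other time.

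**Figure D2:**
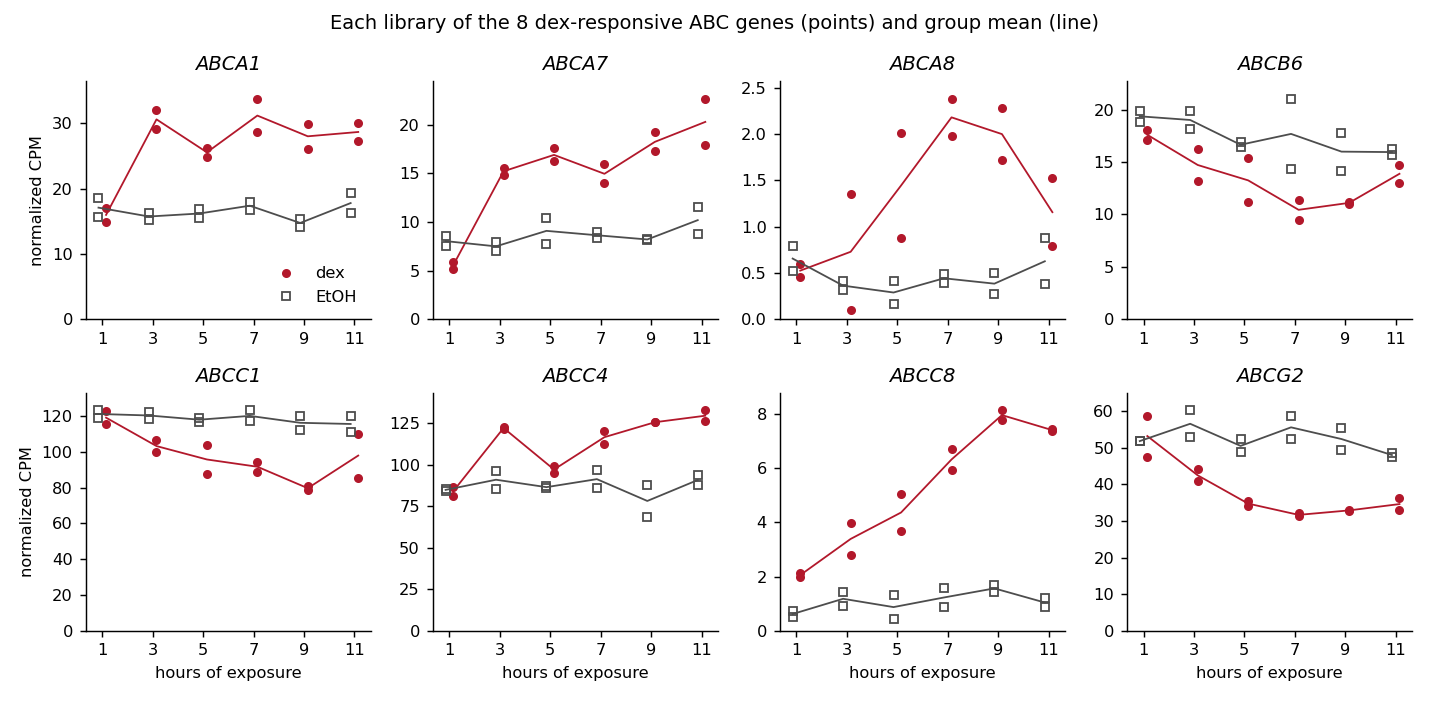
Normalized CPM in each library (points, 2 for each treatment and time point) and group means (lines) of the 8 dex-responsive ABC genes against hours of exposure, with each axis starting at 0. ABCC8 with dex stands between 1.98 and 8.13 CPM, above all EtOH libraries of its time points, and ABCG2 with dex falls to 31.3 CPM at 7 h.

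Drug and organic anion efflux moved in both directions. Of 8 genes 6 were tested. ABCC4, the pump for cyclic nucleotides, prostaglandins and conjugated drugs, was called higher at 3, 7, 9 and 11 h. It was at 68.7 to 96.8 CPM in the EtOH libraries, and with dex at 86.8 and 81.3 CPM after 1 h, 121.9 and 122.6 after 3 h, 99.2 and 95.3 after 5 h, 112.9 and 120.6 after 7 h, 125.9 and 125.6 after 9 h, and 132.9 and 126.4 after 11 h. At each time point from 3 h on, both dex libraries lay above both EtOH libraries. Its largest log2 fold change was 0.70 ± 0.13 at 9 h (adjusted p = 0.00191 by edgeR), and the effect differed between time points (adjusted p = 0.0167 by edgeR). In EtOH 85.3% of its counts fell on ENST00000376887, which starts 14 bases from the RefSeq start of the window above, and 85.4% with dex. The call of ABCC4 at 7 h was lost without dex replicate 2. That at 11 h was lost without EtOH replicate 1 and without EtOH replicate 2.

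ABCG2, the breast cancer resistance protein, exports many drugs and urate and went the other way. It lay between 47.4 and 60.2 CPM with EtOH, and with dex at 58.8 and 47.6 CPM after 1 h, 40.8 and 44.1 after 3 h, 34.1 and 35.4 after 5 h, 31.3 and 32.1 after 7 h, 32.6 and 33.1 after 9 h, and 36.2 and 33.0 after 11 h. Both dex libraries lay below both EtOH libraries at every time point from 3 h on, and at 1 h the groups overlapped. It was called lower at 3, 5, 7 and 9 h (at 3 h not without dex replicate 1 or EtOH replicate 1, and at 9 h not without dex replicate 1 or 2), with a log2 fold change of -0.80 ± 0.11 at 7 h (1.75-fold lower, adjusted p = 2.34e-07 by edgeR). The value at 11 h, -0.45, narrowly missed the threshold (adjusted p = 0.107 by edgeR). ABCG2 was called at 11 h with no filter, in one fit over 24 libraries, with the replicate block and with transcripts tested by themselves. Its dex effect differed between time points (adjusted p = 0.00809 by edgeR).

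ABCG2 was counted mostly on 2 transcripts, with 48.9% and 47.7% of its counts in EtOH, and 50.2% and 46.5% with dex. The one that starts 3 bases from the RefSeq start of the window above, ENST00000237612, had a log2 fold change of -0.86 at 7 h, and the other, ENST00000515655, had -0.82. They have nearly the same length (4479 and 4276 bases), and how reads shared by transcripts of a gene were placed is not given in the sources used here, so the split between them is uncertain.

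ABCC1, the multidrug resistance protein that exports glutathione conjugates, was lower with dex at 5, 7 and 9 h. The EtOH libraries held 111.1 to 123.3 CPM, and the dex libraries held 122.8 and 115.6 CPM after 1 h, 106.7 and 99.8 after 3 h, 103.9 and 87.7 after 5 h, 94.4 and 89.1 after 7 h, 80.7 and 78.8 after 9 h, and 85.7 and 110.3 after 11 h. Both dex libraries lay below both EtOH libraries from 3 h on. At 9 h the log2 fold change was -0.53 ± 0.11 (adjusted p = 0.0054 by edgeR), and this call was lost without dex replicate 1 or 2. The call at 5 h was lost with DESeq2, with transcripts tested by themselves and without dex replicate 2 or either EtOH replicate. ABCC1 was not dex-responsive without dex replicate 2. ABCC6, its neighbour 5853 bases away on chromosome 16, was called lower at 7 h alone (2.11 and 1.98 CPM with dex, 4.42 and 3.04 with EtOH), and near-identical copies of ABCC6 exist in the genome, so its counts are uncertain. That call was lost with DESeq2, at a threshold of 0.05 and without dex replicate 1, dex replicate 2 or EtOH replicate 1. ABCC5 and ABCC10 were not called in the main analysis. ABCC5 lay above EtOH in both libraries at each time from 3 h on, with log2 fold changes from 0.18 to 0.28. It was called at 5 h with protein-coding transcripts alone and at 9 h with the replicate block. With transcripts tested by themselves it was called at 7 h.

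Other drug carriers and xenobiotic receptors were tested for 11 of 13 genes, of which 4 were higher and 2 lower at consecutive time points, where 10.7% and 9.46% of all genes were. SLC22A5, the carnitine carrier, was at 171.7 and 171.7 CPM with dex after 5 h against 61.6 and 43.7 with EtOH, and it was already called at 1 h (log2 fold change 0.71). MVP, the major vault protein, was higher at 5 h, with a log2 fold change of 0.64, and the dioxin receptor AHR was lower at 3 h, at 28.8 and 26.3 CPM against 54.8 and 50.9. The organic cation exporter SLC47A1 was lower at 5 h, with a log2 fold change of -0.51.

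The sulfonylurea receptor ABCC8, the regulatory subunit of the KATP channel of the pancreas and neurons, had the largest log2 fold change of the members at 11 h. It was a rare transcript, with 0.416 to 1.70 CPM in the EtOH libraries. With dex it was at 1.98 and 2.13 CPM after 1 h, at 2.80 and 3.97 after 3 h, at 5.02 and 3.70 after 5 h, at 6.69 and 5.94 after 7 h, at 8.13 and 7.77 after 9 h and at 7.43 and 7.36 after 11 h. The lowest of the 12 dex libraries, at 1.98 CPM, lay above the highest of the 12 EtOH libraries. The log2 fold change was 2.82 ± 0.33 at 11 h (7.05-fold, adjusted p = 0.000146 by edgeR) and 1.68 ± 0.47 at 1 h, which was not called (adjusted p = 0.165 by edgeR). At 1 h ABCC8 was called with no filter (adjusted p = 0.0937), in one fit over 24 libraries (0.0701) and with the replicate block (0.0396), and over all alternatives the adjusted p at 1 h ran from 0.0396 to 0.966. A difference in the effect between time points was not called (adjusted p = 0.487 by edgeR). ABCC8 passed the count minimum in 12 dex libraries and 6 EtOH libraries.

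ABCC9, the sulfonylurea receptor of heart and smooth muscle, stood at 1.49 CPM per kb of transcript in EtOH, where ABCC8 was at 0.254, and was not called, with log2 fold changes between -0.30 and 0.21. Of the 2 genes for the pore, KCNJ11 was called higher at 3, 5, 7, 9 and 11 h, at 4.05 and 3.97 CPM with dex against 0.310 and 0.664 with EtOH at 3 h and at 2.97 and 4.40 against 0.504 and 0.546 at 11 h. At 3 h its log2 fold change was 2.96 ± 0.42, which is given as a description. KCNJ11 was at most at 0.885 CPM in any EtOH library, under the count minimum. It entered the test only through its dex libraries, so its calls were built into the filter. KCNJ8 was not called at any time. In GENCODE 29 (GRCh38) KCNJ11 lies at chr11:17385859-17389331 and ABCC8 at chr11:17392498-17476879, both on the minus strand, with 3166 bases and 0 genes between them.

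**Figure D3:**
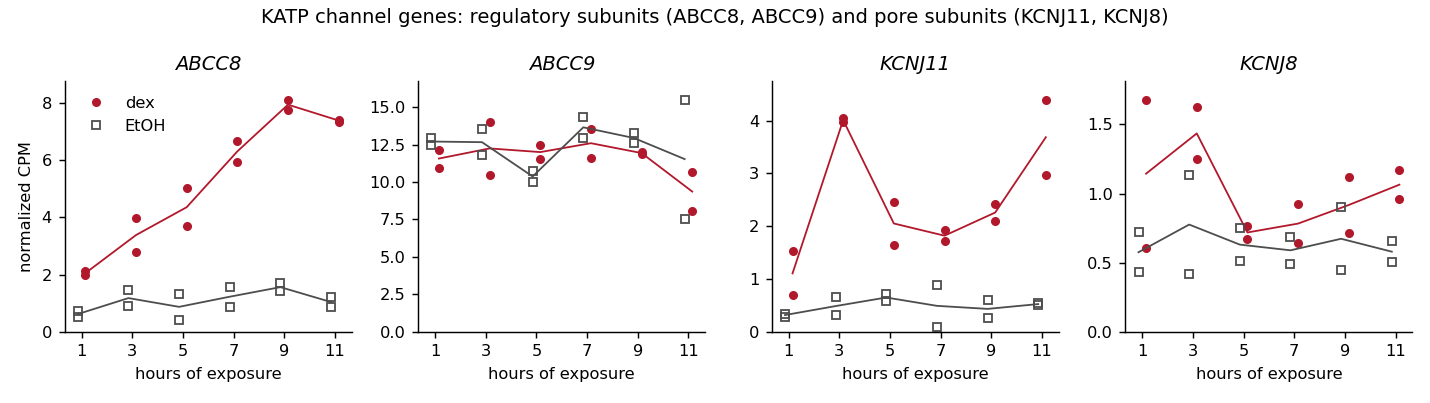
Normalized CPM in each library (points, 2 for each treatment and time point) and group means (lines) of 4 KATP channel genes against hours of exposure, with each axis starting at 0. ABCC8 and KCNJ11 separate by treatment, as at 11 h (7.43 and 7.36 CPM against 0.882 and 1.20 for ABCC8), and ABCC9 and KCNJ8 overlap at several time points.

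Of the 4 mitochondrial members, which serve heme, iron-sulfur cluster and ion handling, the porphyrin transporter ABCB6 was dex-responsive. It lay between 14.2 and 21.0 CPM with EtOH, and with dex at 17.1 and 18.1 CPM after 1 h, 13.2 and 16.2 after 3 h, 11.1 and 15.3 after 5 h, 11.4 and 9.50 after 7 h, 11.0 and 11.2 after 9 h, and 13.0 and 14.7 after 11 h. It lay below EtOH in both libraries at all 6 time points, with log2 fold changes of -0.74 ± 0.18 at 7 h (adjusted p = 0.00217 by edgeR) and -0.50 ± 0.18 at 9 h (adjusted p = 0.0893 by edgeR). It was not dex-responsive in 7 of 13 alternatives, DESeq2 and a threshold of 0.05 among them. ABCB10, needed for heme synthesis in red cell precursors, was called lower at 5 h alone (29.1 and 30.3 CPM against 38.5 and 41.1). At 1 and 11 h both its dex libraries lay above both EtOH libraries. Its dex effect differed between time points (adjusted p = 0.0921 by edgeR). ABCB8 was not called, and its log2 fold changes lay between -0.20 and 0.07.

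Lysosomal members were called in single or separate time points. ABCA2, a transporter of lipids of nerve myelin, was called higher at 3 h (35.9 and 32.0 CPM against 24.3 and 26.1), ABCA5 at 5 h and 9 h (log2 fold changes 0.40 and 0.64, adjusted p = 0.0988 and 0.0904 by edgeR), and ABCB9, a peptide transporter, at 5 h (9.39 and 8.73 CPM against 4.60 and 6.74). ABCA5 lost its call at 5 h in 11 of 13 alternatives, and at 9 h with DESeq2, at a threshold of 0.05 and without dex replicate 1, dex replicate 2 or EtOH replicate 2, among others. ABCB9 lost its call with DESeq2 and without dex replicate 1 or EtOH replicate 1, and ABCA2 with DESeq2, in one fit over 24 libraries and without dex replicate 1 or EtOH replicate 1. ABCA5 overlaps ABCA10 on chromosome 17 by 536 bases on one strand, so reads in that stretch cannot be told apart. ABCD4, which works with cobalamin export, was not called.

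Peroxisomal members were not called at any time point in the main analysis. ABCD3, which imports branched fatty acids, lay above EtOH in both libraries at all 6 time points, with log2 fold changes between 0.10 and 0.27. In the list of 7 peroxisomal oxidation genes, PEX19 and HSD17B4 were among those higher at 5 and 7 h. HSD17B4, an enzyme of peroxisomal beta-oxidation, was at 119.4 and 115.6 CPM with dex after 5 h against 85.2 and 102.2 with EtOH.

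The members without membrane domains had 0 calls. ABCE1, which splits ribosomes after termination, and ABCF1 to ABCF3, which act in translation, had log2 fold changes between -0.25 and 0.35, and 0 of 4 were called at any time point. At 9 h ABCE1 was called higher with the replicate block, in one fit over 24 libraries, and without EtOH replicate 1 or 2. ABCE1 and ABCF1 to ABCF3 were called at 11 h without dex replicate 1, where the share called among all genes also rose. ABCE1 ran from 237.3 to 334.5 CPM over the 24 libraries. ABCF2 differed between time points in the EtOH libraries (adjusted p = 0.0919 by edgeR), the only member to do so, where 3.30% of all genes did. Of 5 ribosome recycling genes, GCN1 alone was higher at consecutive time points. TAP1 and TAP2, which are ABC peptide transporters outside the symbol rule, were not called.

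ABCA8, a lipid transporter of less certain role, was rare, at 0.167 to 0.873 CPM with EtOH. With dex it was at 0.593 and 0.456 CPM after 1 h, 0.104 and 1.35 after 3 h, 0.874 and 2.02 after 5 h, 2.38 and 1.98 after 7 h, 2.28 and 1.72 after 9 h, and 0.787 and 1.52 after 11 h. The groups overlapped at 1, 3 and 11 h, and dex lay above EtOH at 5, 7 and 9 h. It passed the count minimum in 7 dex libraries and 0 EtOH libraries, so a difference was built into its being tested, and its log2 fold change of 2.30 ± 0.51 at 7 h is given as a description.

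Per length of transcript, the 28 tested members spanned 1037-fold in the EtOH libraries. ABCE1 was highest, at 94.3 ± 6.1 CPM per kb (SD, n = 12), then ABCF2 (26.6), ABCC1 (19.9) and ABCC4 (16.1). ABCG2 was at 12.3, ABCA1 at 1.61, ABCA7 at 1.42, ABCC8 at 0.254 and ABCA8 at 0.0909 CPM per kb. The median of all genes tested was 5.88 CPM per kb, and 14 of the 28 members lay above it. In this order 22 of the 27 neighbouring pairs had overlapping library ranges and cannot be ranked by these libraries.

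**Figure D4:**
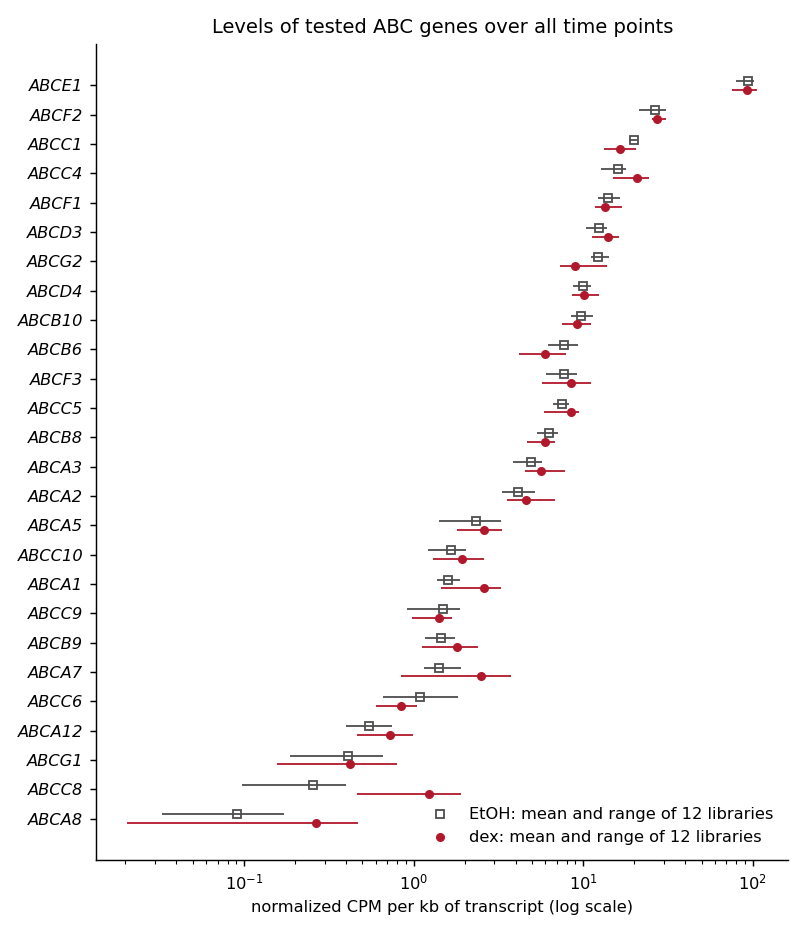
Normalized CPM per kb of transcript (log axis) of the tested ABC genes reported here, as mean (symbol) and range (line) of the 12 EtOH and 12 dex libraries over all time points. ABCE1 heads the order at 94.3 CPM per kb with EtOH and ABCA8 closes it at 0.0909.

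The 15 members that were not tested had at most 9 counts in a library. ABCA10 had 108 counts in all 24 libraries, ABCA9 106 and ABCA13 88, and ABCB1, the P-glycoprotein, had 13. ABCC12 had 0 counts in every library. ABCA6, between ABCA8 and ABCA10 on chromosome 17, had 16 counts in the dex libraries and 2 in the EtOH libraries, and ABCC11 had 33 and 9. These counts were too low for a test and say only that differences were not detectable at this depth.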

How the data were processed

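RNA-seq of 24 A549 libraries was used. The deposited values are raw counts of reads per transcript, which the authors made from 50-base reads of strand-specific poly-A libraries with Bowtie 0.12.9 against GENCODE 19, and samtools 1.3.1 for the counts. The labels name hg19. Use of strand in counting and the placement of reads that match several transcripts are not given in the sources used here. The row * held 0 counts.

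Transcripts were joined to GENCODE 29 genes by identifier without version (110262 of 119207, with 94.1% of counts) and summed per gene. Library size was the total of the table, scaled by TMM, and filterByExpr kept 15337 genes. Each time point was fitted by itself by the quasi-likelihood F-test of edgeR 4.0.16 (R 4.3.3), and genes at a Benjamini-Hochberg adjusted p of at most 0.1 were called. A standard error is the absolute log2 fold change over the square root of F. Tests of time used one fit over the libraries involved. Levels are TMM-scaled CPM, and per length they are divided by the count-weighted mean transcript length. Every p measures the spread between labelled biological replicates.

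Members and lists were chosen with earlier results of these data known. Named with values in the text are ABCA1, ABCC4, ABCC8, ABCG2, members called at any time point, and up to 4 genes of a partner list called at 2 or more consecutive time points; NR1H2, NR1H3, KCNJ8, TAP1 and TAP2, and members not called, were named after their values were seen. Alternatives were DESeq2 1.42.0, its size factors in edgeR, no filter, a minimum of 10 counts throughout, a joint fit of the 24 libraries, the replicate block, a cut at 0.05, transcripts tested by themselves, protein-coding transcripts alone, omission of each replicate, and 0.5 in place of 2 as the prior count. Figures used matplotlib 3.10.9. Some members and partner genes enter the counts but are not reported here by name.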

Additional observations from a re-analysis of the deposited data

Results flagged for a closer look

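The effect of dex on ABCG1 was called as different between 2 time points, a call that 6 alternatives did not keep. The log2 fold change was -1.03 at 5 h and 1.25 at 11 h, and the effect at 11 h minus that at 5 h was 2.26 ± 0.64 (SE, adjusted p = 0.072 by edgeR's quasi-likelihood F-test, Benjamini-Hochberg adjusted), where 2.91% of all genes were called. Both dex libraries lay below both EtOH libraries at 5 h and above them at 11 h. ABCG1 was sparse, at most 2.33 CPM in any library. With 2 libraries in each group, no single library could be tested for standing apart from its group. Over all 6 time points a difference in effect was not called (adjusted p = 0.12 by edgeR).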

How the results depend on the processing

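ABCA1, ABCA7, ABCC4 and ABCG2 were dex-responsive under all 13 alternatives that gave such a set, and the set held between 6 and 9 members, 8 in the main analysis. ABCB6 left it in 7 of the 13, ABCA8 in 2 (10 counts in every library and transcripts tested by themselves), ABCC1 without dex replicate 2, and ABCC8 only with 10 counts in every library, a filter that removes it. For the 8 dex-responsive members, 31 values were called. Of 392 pairs of such a value and an alternative that tested the gene, 362 stayed called, 30 were no longer called and 0 changed sign. Members called only at single or separate time points, such as ABCA5, are not among these pairs. Members called at 1 h were 1 (ABCC8) with no filter (1.11% of all genes) and 1 (ABCC8) in one fit over 24 libraries (1.25%). The main analysis called 0 (1.06%). At 3 h DESeq2 called 5 (7.88% of all genes) and transcripts tested by themselves 5 (12.6%), against 8 in the main analysis (14.1%). At 5 h DESeq2 called 5 (15.3%) against 9 (25.0%). At 11 h one fit over 24 libraries called 7 (16.2%) against 4 (9.12%). The single call for 11 h against 5 h (2.91% of all genes) became 0 with DESeq2 (2.9%) and 0 at a threshold of 0.05 (1.59%). With 10 counts in every library it also became 0 (3.79%). The call in EtOH over time (3.30%) became 3 with no filter (7.18%) and 0 at 0.05 (0.809%).

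Leaving out a library leaves a group with 1, which is assumed to vary like the others. The calls then ran from 0 to 1 at 1 h, 4 to 8 at 3 h, 6 to 8 at 5 h, 6 to 12 at 7 h, 5 to 14 at 9 h, 1 to 15 at 11 h, 2 to 6 for the effect over time and 0 to 1 for 11 h against 5 h. At 11 h the number of members called rose without either dex replicate and fell without either EtOH replicate. At 9 h it rose without EtOH replicate 1 and fell without either dex replicate. At 3 h it fell without EtOH replicate 1 or dex replicate 1, and at 7 h without dex replicate 2. In each of these cases the share called among all genes moved the same way. At 9 h without EtOH replicate 2 the number of members fell while the share among all genes rose. Some members that the main analysis called at no time point were called with a library left out, among them ABCB8, ABCC5, ABCC9, ABCC10 and ABCD3. Values that changed sign were not called: with 1 library left out, the log2 fold change at 1 h ran from -0.2251 to 0.01687 for ABCA1, -0.5522 to 0.04175 for ABCA8, -0.07668 to 0.01672 for ABCC1, -0.06978 to 0.03019 for ABCC4 and -0.1295 to 0.1808 for ABCG2, and at 3 h from -1.719 to 1.852 for ABCA8. The cause was not tested.

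The study's methods describe a paired vehicle control, but whether the replicate numbers pair the libraries was not settled here. Correlations of same-numbered deviations ran from -0.068 to 0.157, with 0.157 at 1 h and 0.111 at 9 h. With the replicate block 1 member was called at 1 h (ABCC8), where 3.8% of all genes were (1.06% in the main analysis). At 3 h 8 were called (12.1%), at 5 h 9 (25.9%) and at 7 h 11 (29.6%). At 9 h 11 were called (28.6%, and 19.8% in the main analysis) and at 11 h 5 (11.7%). For EtOH over time 0 were called (3%), and the same 8 members were dex-responsive (21.7%). An alternative with pseudogenes could not be run, since the table holds 0 pseudogenes of members.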
